A study of Mus musculus with 18 samples.

Results

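The Wnt genes described here are 50 of the 46983 genes in the deposited expression table, taken by symbol: 10 secreted inhibitors (the Sfrp and Dkk families, Frzb and Wif1), 19 Wnt ligands, 4 R-spondins, 10 Frizzled receptors, the co-receptors Lrp5 and Lrp6, and 5 genes of the nuclear end of the pathway (Axin2, Lef1, Tcf7, Tcf7l1 and Tcf7l2). They were followed in lipochondrocytes, the lipid-filled cells of the mouse ear cartilage, at postnatal days 8, 10, 13, 21 and 33 (P8, P10, P13, P21 and P33), and in adipocytes of the inguinal fat at P33, with 3 RNA sequencing libraries in each of the 6 groups. All 6 groups, adipocytes included, came from C57BL/6 mice labelled Wnt1-Cre2;TdTomato, a genotype in which a Wnt1-driven Cre switches on a red reporter in cells of neural crest origin. The P8, P10 and P13 lipochondrocytes were freed with collagenase and sorted for high TdTomato. The lipochondrocytes of P21 and P33, dissected so as to avoid adipocytes, and the adipocytes themselves were taken as the fraction that floats on centrifugation, so P21 and P13 differ in isolation as well as in age and these cannot be told apart. The labels do not say whether the 3 libraries of a group were separate animals, so p-values measure the spread between these libraries.

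Wnt ligands are lipid-bearing secreted proteins that bind a Frizzled receptor together with Lrp5 or Lrp6, which keeps beta-catenin from being degraded and lets it act with the Tcf and Lef factors on target genes such as Axin2. Secreted inhibitors act outside the cell: Wif1, Frzb and the Sfrp proteins bind the ligands, and Dkk1, Dkk2 and Dkk4 bind the Lrp co-receptors, while R-spondins keep receptors on the surface through the Lgr proteins. In cartilage the pathway bears on whether precursor cells become chondrocytes or bone-forming cells, and Frzb was purified from cartilage. In fat, Wnt signalling is known to hold back the formation of adipocytes, and Sfrp5 is a known secreted product of white fat.

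The stretches upstream of 5 genes whose levels set the cells or stages apart are shown. They are Wif1, Sfrp2 and Fzd1, which were higher in P33 lipochondrocytes than in adipocytes, and Sfrp5 and Fzd4, which were lower. Whether these stretches bear on the levels given later was not tested. Each window holds 200 bases and ends 51 bases before the start site in RefSeq (build GRCm38.p6). The windows lie at chr10:121033754-121033953 on the plus strand for Wif1, chr3:83766071-83766270 on the plus strand for Sfrp2, chr5:4758267-4758466 on the minus strand for Fzd1, chr19:42202303-42202502 on the minus strand for Sfrp5 and chr7:89404116-89404315 on the plus strand for Fzd4. None of these 5 windows reaches into the gene as GENCODE M21 draws it. Sequences read 5′ to 3′ on the gene's strand, and capitals mark the letters CTTTGA or TCAAAG, the 6-letter core that Tcf and Lef proteins are known to bind, read on both strands.
Wif1: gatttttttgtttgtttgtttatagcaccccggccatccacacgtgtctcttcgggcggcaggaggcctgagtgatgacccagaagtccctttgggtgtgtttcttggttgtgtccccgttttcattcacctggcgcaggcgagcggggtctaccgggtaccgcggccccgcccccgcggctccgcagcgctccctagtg
Sfrp2: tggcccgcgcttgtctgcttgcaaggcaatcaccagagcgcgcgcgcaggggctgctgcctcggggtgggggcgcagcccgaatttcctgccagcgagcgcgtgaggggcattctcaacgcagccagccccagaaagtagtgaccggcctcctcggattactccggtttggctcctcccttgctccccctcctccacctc
Fzd1: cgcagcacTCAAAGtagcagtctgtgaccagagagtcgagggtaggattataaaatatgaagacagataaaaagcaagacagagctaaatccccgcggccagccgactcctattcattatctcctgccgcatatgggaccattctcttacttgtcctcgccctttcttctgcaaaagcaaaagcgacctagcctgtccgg
Sfrp5: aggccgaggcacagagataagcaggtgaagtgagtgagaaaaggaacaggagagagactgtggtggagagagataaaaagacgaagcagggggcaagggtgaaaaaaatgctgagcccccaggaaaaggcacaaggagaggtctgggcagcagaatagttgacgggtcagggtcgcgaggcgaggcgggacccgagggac
Fzd4: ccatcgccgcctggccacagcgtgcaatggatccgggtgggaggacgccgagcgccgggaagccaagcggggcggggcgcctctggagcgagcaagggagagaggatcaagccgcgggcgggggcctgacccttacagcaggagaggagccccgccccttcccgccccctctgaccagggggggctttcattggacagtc
Among these 5 windows only that of Fzd1 holds the 6 letters. It is also the only one of the 5 whose bases just past the RefSeq start were not found in GENCODE M21 transcripts of the gene. RefSeq windows were found for 34 of the 50 genes (42 windows in all), and 5 of the 42 windows hold the letters (Dkk1, Frzb, Fzd1, Lef1 and Wnt5b), against 11.8% of all 32851 windows of that length. For 34 of the 42 windows the bases just past the RefSeq start were found in GENCODE M21 transcripts. Of the 42 windows 27 lie outside the gene as GENCODE M21 draws it. The windows with the letters in Dkk1 (119 bases), Frzb (179), Lef1 (200) and Wnt5b (200) lie partly or wholly inside it. A match of 6 letters is a description of the sequence and not a binding site.

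By cartilage and adipocyte markers the libraries fitted their labels. The 17 cartilage markers, such as Col2a1 and Acan, summed to 27043 to 58836 FPKM in the 15 lipochondrocyte libraries and to 10.2 to 15.3 in the adipocyte libraries. The 10 adipocyte markers, such as Adipoq and Plin1, summed to 3.48 to 30.8 and 118445 to 124815 FPKM. Within the cartilage sum Cytl1 stood at 9542, 12539 and 14987 FPKM at P21 and 18569, 16368 and 20673 at P33. Col2a1 stood at 1003, 935 and 850 FPKM at P21 and 236, 245 and 189 at P33, so the sum hides opposite moves. Of the cartilage markers 16 of 17 averaged 1 FPKM or more at each stage, and Matn1 was listed at 0 in all P21 and P33 libraries. FPKM are fragments per kilobase of gene and per unit of mapped fragments, and so a level per length. P33 replicate 3 stood apart from its group: the SD of its deviations from the group means was 0.513 on the log2 scale, against 0.255 to 0.388 in the other libraries. Among the P33 libraries it held the lowest Wif1 and Frzb and the highest Sfrp2, Dkk2, Dkk3, Fzd1 and Wnt16. Its 15 fibroblast and perichondrium markers summed to 9568 FPKM, against 6297 and 5377 in P33 replicates 1 and 2. Its 9 skeletal muscle markers summed to 224 FPKM, against 27.7 and 55.5 in those replicates. Sequencing depth was 12461965 to 27640142 reads, of which 73.19% to 84.44% aligned.

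Few of the 50 genes made up most of the Wnt-related RNA, and they were not the same in lipochondrocytes and adipocytes. Wif1 held 44.8% of the summed FPKM of the 50 genes at P8, 52.2% at P10, 72.2% at P13, 80.1% at P21 and 75.3% at P33. In adipocytes Fzd4 led with 36.6% and Sfrp5 followed with 26.3%. The sum of the 50 genes was 793 ± 63.4 FPKM at P8, 826 ± 62.3 at P10, 1933 ± 204 at P13, 5405 ± 489 at P21 and 3535 ± 1270 at P33, against 116 ± 1.99 in adipocytes (SD, n = 3 each). Ligand RNA was low in every group, with sums over the 19 ligands between 4.24 ± 0.606 FPKM (P21) and 6.54 ± 0.342 FPKM (adipocytes). Fewer cells of a type and less RNA per cell cannot be told apart in bulk samples such as these.

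**Figure D1:**
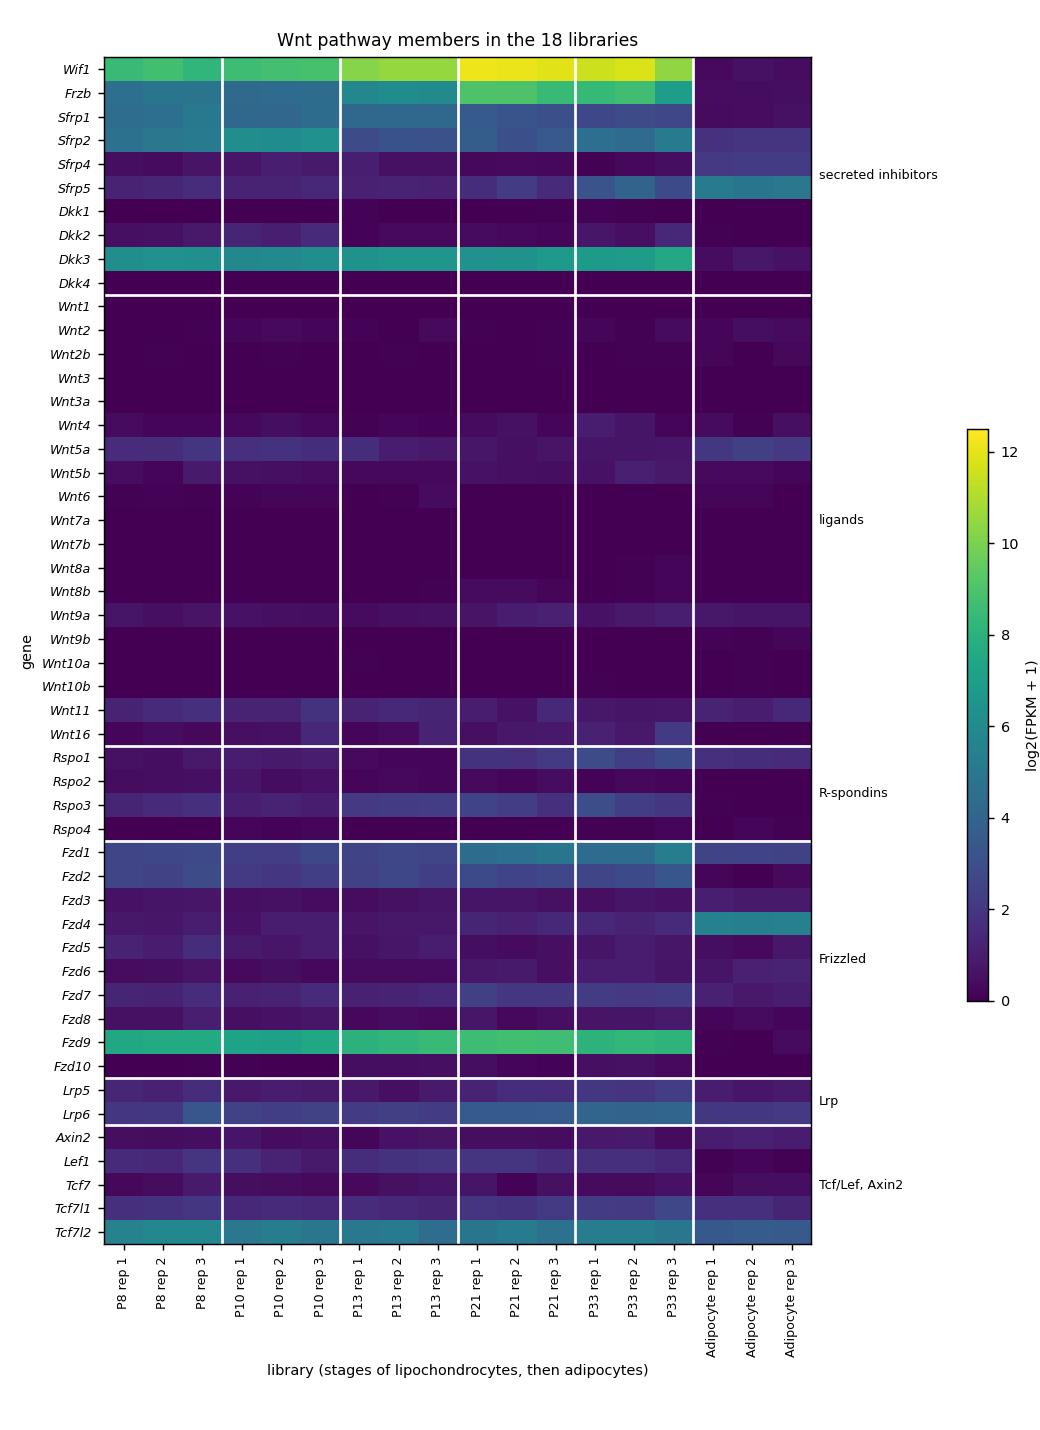
Level of the 50 Wnt genes (rows, grouped by role) in the 18 libraries (columns, lipochondrocyte stages followed by adipocytes), as log2(FPKM + 1) on the colour scale. Wif1, Frzb, Dkk3 and Fzd9 are high in the 15 lipochondrocyte libraries and near 0 in the 3 adipocyte libraries, Fzd4 and Sfrp5 are highest in the adipocyte libraries, and most ligands are near 0 throughout.

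Differences were tested two-sided with limma on log2(FPKM + 1) over the 13815 genes that reached 1 FPKM in 3 or more libraries, and a gene is called at an adjusted p below 0.05. Of the 50 Wnt genes 25 passed that filter. The 25 that did not pass were 15 ligands, 4 Frizzled genes, Dkk1, Dkk4, Rspo2, Rspo4, Axin2 and Tcf7. Sfrp4 passed through its adipocyte libraries, Dkk2 through those of P10, Fzd5 through those of P8 and Wnt9a through libraries of P21 and P33. In addition, 13 of the 25 that passed have no adipocyte library at 1 FPKM. The filter itself thus favours a difference of these groups for these genes.

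At P33, lipochondrocytes differed from adipocytes in 22 of the 25 tested genes. Higher in lipochondrocytes were 18, from Wif1 (10.84 on the log2(FPKM + 1) scale), Fzd9 (8.01), Frzb (7.56) and Dkk3 (6.48) down to Tcf7l1 (0.74). Lower were 4, namely Fzd4 (-4.04), Sfrp4 (-1.91), Sfrp5 (-1.63) and Wnt5a (-1.43). These counts stand against 24.0% of all genes higher and 44.5% lower. The median difference was 1.39 over the tested Wnt genes and -0.28 over all tested genes. The 3 P33 and the 3 adipocyte libraries did not overlap in 23 of the 25 tested genes, the 22 called among them. This share was not taken over all genes, so it does not set the Wnt genes apart. Without P33 replicate 3 the counts were again 18 higher and 4 lower, where 69.1% of all genes were called in either direction. Wnt11 (adjusted p = 0.0639), Wnt9a (adjusted p = 0.562) and Fzd5 (adjusted p = 0.0926) were not called, although Fzd5 was called higher with median-of-ratios scaling (0.37, adjusted p = 0.026) and Wnt11 was called lower under settings given with its levels.

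**Figure D2:**
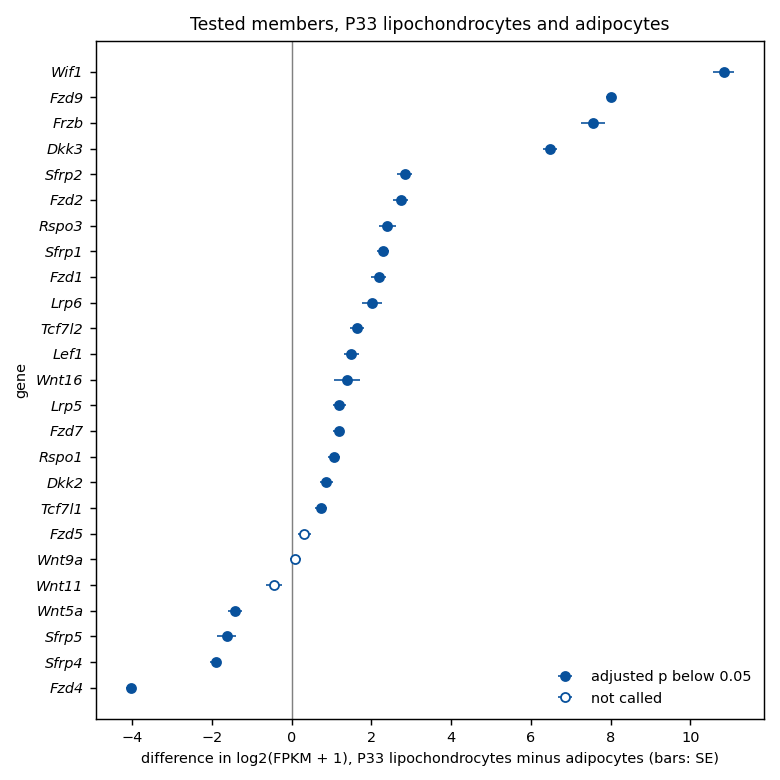
Difference in log2(FPKM + 1) between P33 lipochondrocytes and adipocytes (x axis, P33 minus adipocyte, bars are SE) for the 25 tested Wnt genes (y axis), with filled points at an adjusted p below 0.05 and open points otherwise. Of the called genes 18 lie right of 0, Wif1 furthest, and 4 lie left of it, Fzd4 furthest.

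Between stages, called Wnt genes moved in both directions in each comparison. At P10 relative to P8, Sfrp2 (1.21) and Dkk2 (0.63) were higher and Tcf7l2 (-0.65) was lower, that is 2 genes higher and 1 lower of 25, against 1.90% of all genes higher and 9.14% lower. At P13 relative to P10, Wif1 (1.69), Frzb (1.58), Rspo3 (1.08) and Fzd9 (0.94) were higher and Sfrp2 (-3.13), Dkk2 (-1.03), Rspo1 (-0.70) and Wnt5a (-0.59) lower, 4 in each direction, against 18.6% of all genes higher and 4.03% lower. P13 relative to P8 shares libraries with both of these comparisons. It gave 3 genes higher (Wif1, Frzb and Fzd9) and 3 lower (Sfrp2, Tcf7l2 and Lrp5), against 2.69% of all genes higher and 1.52% lower.

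The step to P21, at which the isolation changed too, had 15 called Wnt genes. Higher than at P13 were 12, led by Frzb (2.92), Fzd1 (2.00), Rspo1 (1.67), Wif1 (1.63) and Lrp6 (1.33), and lower were 3 (Sfrp1, Wnt5a and Sfrp4), against 36.0% of all genes higher and 7.04% lower. Many genes outside the pathway were thus higher at this step as well. At P33 relative to P21, 6 Wnt genes were higher (Sfrp5, Sfrp2, Rspo1, Dkk3, Dkk2 and Lrp5) and 2 lower (Sfrp1 and Fzd9), against 2.87% of all genes higher and 7.17% lower. Without P33 replicate 3 these were 3 and 1, where 13% of all genes were called in either direction, against 10% with all libraries. With only P33 and P21 in the limma fit 0 were called, where 0.912% of all genes were. In that fit 10 Wnt genes had an unadjusted p below 0.05. In the comparisons between stages the groups did not overlap in any called Wnt gene, nor in many that were not called. At P10 relative to P8, 14 of 25 tested Wnt genes did not overlap and 3 were called. At P13 relative to P8 these were 14 and 6. Such shares were not taken over all genes.

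At both of these later steps markers of other cells moved as well. At P21 relative to P13 the cartilage sum was 34776 to 38836 against 52759 to 58287 FPKM, the fibroblast and perichondrium sum 5670 to 10330 against 2342 to 3081, the sum of 9 skeletal muscle markers 84.3 to 570 against 24.2 to 38.2 and that of 11 macrophage markers 20.2 to 35.9 against 3.81 to 5.04. The adipocyte sum was 24.6 to 30.8 FPKM at P21 against 5.28 to 5.91 at P13, with 7 of the 10 genes called higher, and the sum of 10 keratinocyte markers 4.23 to 6.89 against 1.79 to 2.86. That of 6 smooth muscle and pericyte markers was 57.5 to 62.7 against 91.8 to 120 FPKM and that of 8 mammary epithelium markers 27.9 to 39.8 against 12.1 to 14.4. At P33 relative to P21 the cartilage sum was 27043 to 30088 against 34776 to 38836 FPKM, the macrophage sum 38.5 to 70.7 against 20.2 to 35.9 and the keratinocyte sum 10.5 to 15.7 against 4.23 to 6.89. The adipocyte sum was 11.6 to 14.4 FPKM at P33 against 24.6 to 30.8 at P21, with 4 of the 10 genes called lower, and the mammary epithelium sum 15.9 to 27.1 against 27.9 to 39.8. Their part in the calls of these steps was not tested.

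**Figure D3:**
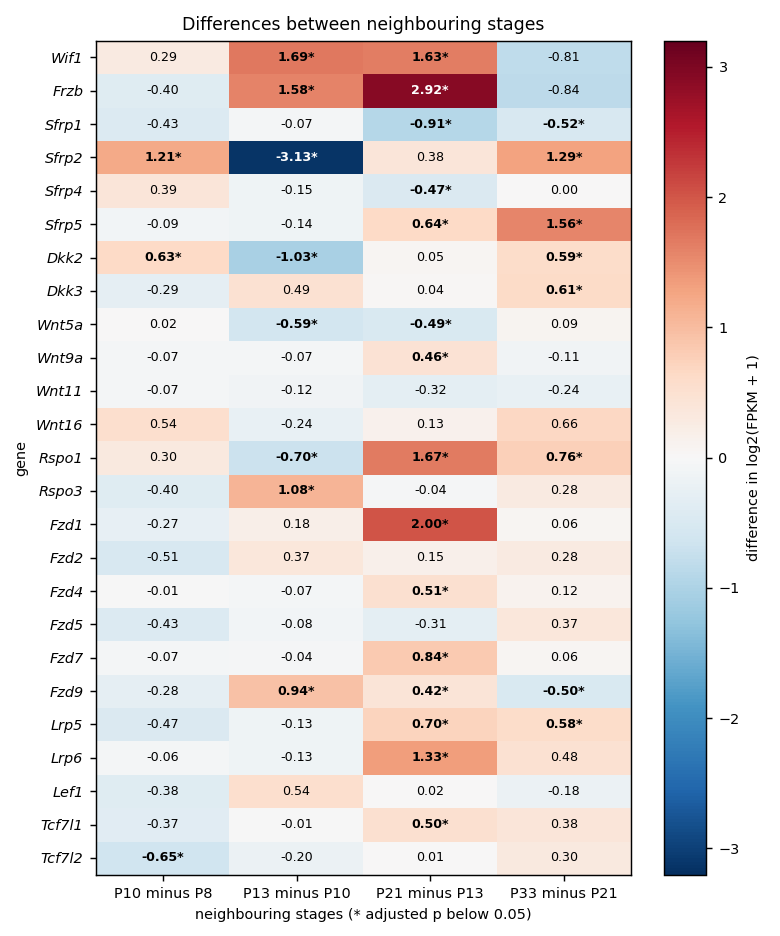
Difference in log2(FPKM + 1) between neighbouring stages (columns, later minus earlier stage) for the 25 tested Wnt genes (rows), with a star at an adjusted p below 0.05. Sfrp2 is positive at P10 minus P8 and negative at P13 minus P10, and the largest positive value is that of Frzb at P21 minus P13. With median-of-ratios scaling 9 of the genes change sign at P10 minus P8, 1 at P13 minus P10 and 8 at P21 minus P13, among them the starred Fzd9 (-0.03).

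The direction of calls over all genes depended on scaling. Median-of-ratios factors brought the median of all genes to -0.017 for P33 relative to adipocytes, to 0.003 for P10 relative to P8 (-0.190 as deposited), to 0.000 for P13 relative to P10 (0.149) and to 0.006 for P21 relative to P13 (0.289). The share of calls that were higher was then 46.5% for P33 relative to adipocytes (35.0% as deposited), 79.9% for P10 relative to P8 (17.2%), 48.7% for P13 relative to P10 (82.2%) and 50.0% for P21 relative to P13 (83.7%). The scaled Wnt genes gave 19 higher and 4 lower for P33 relative to adipocytes (30.3% of all genes higher and 34.9% lower) and 3 and 0 for P10 relative to P8 (3.60% of all genes higher and 0.905% lower). They gave 4 and 4 for P13 relative to P10 (8.14% of all genes higher and 8.56% lower) and 3 and 5 for P13 relative to P8 (3.87% of all genes higher and 1.79% lower). At P21 relative to P13 they gave 7 and 5 (16.0% of all genes higher and 16.0% lower), and at P33 relative to P21 6 and 2 (2.99% of all genes higher and 5.95% lower). At P10 relative to P8, where 0 were lower in the scaled limma fit, 6 Wnt genes had an unadjusted p below 0.05 in either direction. At P21 relative to P13, Fzd4, Fzd9, Sfrp5, Tcf7l1 and Wnt9a were no longer called after scaling, and Fzd5 and Wnt11 were called lower. The sign changed with scaling in 9 Wnt genes at P10 relative to P8 (Dkk3, Fzd1, Fzd4, Fzd7, Fzd9, Lrp6, Sfrp5, Wnt9a and Wnt11), in Fzd1 at P13 relative to P10, and in 8 at P21 relative to P13 (Dkk2, Dkk3, Fzd2, Fzd9, Lef1, Sfrp2, Tcf7l2 and Wnt16). Of these, Fzd9 at P21 relative to P13 had been called, and the lowest adjusted p after scaling was 0.544, 0.919 and 0.079 at the 3 steps.

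Wif1, the Wnt inhibitory factor that binds ligands outside the cell (ENSMUSG00000020218.11, chromosome 10:121033960 to 121100650 of GRCm38), was the most abundant Wnt gene of the lipochondrocytes. Its level was 346, 418 and 302 FPKM at P8, 394, 439 and 462 at P10, 1215, 1492 and 1479 at P13, 4626, 4502 and 3864 at P21 and 3029, 3596 and 1358 at P33, against 0.23, 0.47 and 0.32 FPKM in adipocytes. Every P13 library lay above every P8 and P10 library and every P21 library above every P13 library, while the P33 libraries lay below those of P21 and P33 replicate 3 lay among those of P13. The mean at P13 was 3.23 times that at P10 (log2 difference 1.69, SE 0.26, adjusted p = 4.16e-04), and that at P21 3.1 times that at P13 (1.63, SE 0.26, adjusted p = 1.86e-04). P10 and P8 (0.29, adjusted p = 0.519) and P33 and P21 (-0.81, adjusted p = 0.0646) did not pass the test. Without P33 replicate 2, Wif1 was called lower at P33 than at P21 (-1.09, adjusted p = 0.0145), and without P33 replicate 3 the difference was smaller and not called (-0.39, adjusted p = 0.114).

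Frzb, the frizzled-related protein of cartilage (ENSMUSG00000027004.3, chromosome 2:80411970 to 80447625), was also highest at P21, at a lower level. It stood at 22.8, 28.1 and 26.9 FPKM at P8, 18.7, 19.4 and 20.1 at P10, 53.8, 67.5 and 59.3 at P13, 517, 519.97 and 359.92 at P21 and 333, 408 and 123 at P33, against 0.34, 0.35 and 0.4 FPKM in adipocytes. The P13 libraries lay above those of P8 and P10, and the P21 libraries above those of P13. The mean at P21 was 7.74 times that at P13 (log2 difference 2.92, SE 0.31, adjusted p = 3.88e-06), and that at P13 3.1 times that at P10 (1.58, SE 0.31, adjusted p = 2.30e-03). P33 and P21 overlapped (-0.84, adjusted p = 0.105). Without P33 replicate 2 Frzb was called lower at P33 (-1.18, adjusted p = 0.022), and without P33 replicate 3 the difference was smaller and not called (-0.32, adjusted p = 0.213). The call at P13 relative to P8 (1.18, adjusted p = 0.0442) was lost on leaving out any single library of either group, with adjusted p from 0.0782 to 0.146.

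Dkk3, a Dickkopf protein whose action on the Lrp co-receptors is less settled than that of its relatives (ENSMUSG00000030772.5, chromosome 7:112116017 to 112159057), varied less over the stages. It was at 70.8, 78.9 and 75.3 FPKM at P8, 56.2, 60.2 and 68.1 at P10, 80.5, 89.3 and 89.5 at P13, 79.8, 82.7 and 106 at P21 and 112, 121 and 185 at P33, against 0.33, 0.74 and 0.55 FPKM in adipocytes. The P33 libraries lay above all others, and P33 exceeded adipocytes by 6.48 (SE 0.17, adjusted p = 3.42e-14). Of the steps between neighbouring stages, P33 relative to P21 was called (0.61, SE 0.17, adjusted p = 0.0343). That call was lost without P33 replicate 3 (0.38, adjusted p = 0.086), P21 replicate 1 or P21 replicate 2. It was also lost with a pseudocount of 0.1 (adjusted p = 0.105) and with only the 2 groups in the limma fit (0.287).

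Sfrp1, a secreted frizzled-related protein that binds ligands (ENSMUSG00000031548.7, chromosome 8:23411502 to 23449632), was lowest among the lipochondrocytes at the late stages. It was at 21.3, 22.7 and 31.8 FPKM at P8, 17.97, 16.6 and 20.2 at P10, 17.5, 17.4 and 16.95 at P13, 10.7, 8.36 and 7.42 at P21 and 5.49, 6.55 and 5.39 at P33, against 0.3, 0.34 and 0.5 FPKM in adipocytes. The 3 P21 libraries lay below all P13 libraries and the 3 P33 libraries below all P21 libraries. The differences were -0.91 at P21 relative to P13 (SE 0.15, adjusted p = 2.23e-04) and -0.52 at P33 relative to P21 (SE 0.15, adjusted p = 0.0395). The call at P33 relative to P21 was lost without P21 replicate 1, P21 replicate 2, P33 replicate 1 or P33 replicate 3 (highest adjusted p 0.146). It was also lost with a pseudocount of 0.1 (adjusted p = 0.0648) and with only the 2 groups in the limma fit (0.217). P33 still exceeded adipocytes by 2.30 (SE 0.15, adjusted p = 1.93e-09).

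**Figure D4:**
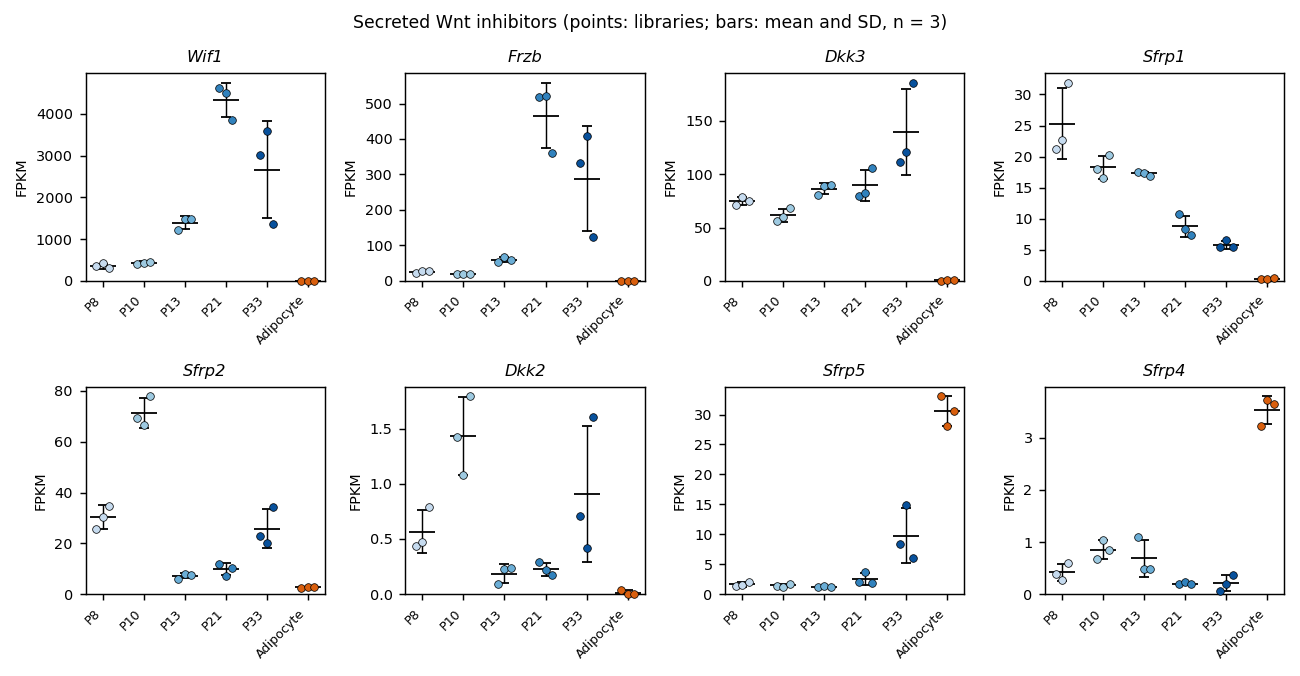
Level in FPKM (y axis, linear and from 0) of 8 secreted inhibitors in each library of the 5 lipochondrocyte stages and of adipocytes (x axis), with points for libraries and bars for the mean and SD of 3. Wif1 and Frzb are highest at P21, Sfrp2 and Dkk2 have their highest mean at P10, and Sfrp5 and Sfrp4 are highest in adipocytes.

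Sfrp2 was higher at P10 than at P8 and lower at P13 than at P10, and Dkk2 was called the same way, the first of its calls under some settings only. Sfrp2, a ligand-binding inhibitor also made by many fibroblasts (ENSMUSG00000027996.13, chromosome 3:83766321 to 83774316), was at 25.6, 30.5 and 34.8 FPKM at P8, 69.5, 66.6 and 77.97 at P10, 6.18, 7.96 and 7.64 at P13, 11.98, 7.25 and 10.4 at P21 and 23.03, 19.99 and 34.4 at P33, against 2.46, 2.82 and 2.77 FPKM in adipocytes. The P10 libraries were the highest of all, without overlap with any other group. The difference was 1.21 at P10 relative to P8 (SE 0.19, adjusted p = 1.76e-03), -3.13 at P13 relative to P10 (SE 0.19, adjusted p = 6.73e-08) and 1.29 at P33 relative to P21 (SE 0.19, adjusted p = 5.60e-04). The last of these calls was lost with only P33 and P21 in the limma fit (adjusted p = 0.105). Dkk2, which binds the Lrp co-receptors, averaged 0.567 ± 0.194 FPKM at P8, 1.43 ± 0.355 at P10, 0.187 ± 0.0839 at P13, 0.227 ± 0.0603 at P21 and 0.91 ± 0.615 at P33, against 0.0133 ± 0.0231 in adipocytes (SD, n = 3 each). Dkk2 passed the filter through its P10 libraries, the group where it is highest. Its call at P10 relative to P8 (0.63, adjusted p = 0.0338) was lost with no filter (0.63, adjusted p = 0.0659), with a pseudocount of 0.1 (1.21, adjusted p = 0.0543) and with only the 2 groups in the fit (0.63, adjusted p = 0.0776). It was also lost without P8 replicate 1 or 2 or P10 replicate 1 or 3 (highest adjusted p 0.106). Its call at P33 relative to P21 (0.59, adjusted p = 0.0435) was lost without any library but P33 replicate 2 (highest adjusted p 0.112), and was smallest without P33 replicate 3 (0.35, adjusted p = 0.104). That call was also lost with no filter (adjusted p = 0.0743) and with only the 2 groups in the limma fit (0.286).

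The fibroblast and perichondrium markers, 15 genes among which Sfrp2 and Dkk2 are not, moved the same way at P10 and P13. They summed to 3794 to 5246 FPKM at P8, 6792 to 8921 at P10, 2342 to 3081 at P13, 5670 to 10330 at P21 and 5377 to 9568 at P33, against 458 to 473 in adipocytes, with 0 of the 15 genes at 0 in all libraries of a lipochondrocyte group and 1 at 0 in all adipocyte libraries. At P10 relative to P8, 5 of the 15 were called higher and 0 lower, and at P13 relative to P10, 1 higher and 12 lower. At P33 relative to P21, where Sfrp2 was higher, the sums overlapped and 2 of the 15 were called higher and 5 lower. Their part in the Sfrp2 and Dkk2 values was not tested.

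Sfrp5 and Sfrp4, ligand-binding inhibitors, were the inhibitors that were lower in P33 lipochondrocytes than in adipocytes. Sfrp5 (ENSMUSG00000018822.7, chromosome 19:42197971 to 42202252) was at 1.36, 1.5 and 2.01 FPKM at P8, 1.35, 1.28 and 1.75 at P10, 1.19, 1.29 and 1.19 at P13, 2.08, 3.64 and 1.9 at P21 and 8.33, 14.9 and 6.12 at P33, against 33.1, 28.1 and 30.5 FPKM in adipocytes. The P33 libraries lay above every earlier library and below every adipocyte library. The difference was 1.56 relative to P21 (SE 0.24, adjusted p = 6.35e-04) and -1.63 relative to adipocytes (SE 0.24, adjusted p = 1.80e-05). The call relative to P21 was lost with only P33 and P21 in the limma fit (adjusted p = 0.128). The adipocyte marker sum was 5.28 to 5.91 FPKM at P13, 24.6 to 30.8 at P21 and 11.6 to 14.4 at P33, so that it was higher at P21 than at P13 and lower at P33 than at P21, and its part in the Sfrp5 values was not tested. The Sfrp5 call at P21 relative to P13 (0.64, adjusted p = 0.0402) was lost with scaling (0.35, adjusted p = 0.234) and without any single P13 library or P21 replicate 2 (highest adjusted p 0.184). Sfrp4 was at 0.06, 0.2 and 0.37 FPKM at P33, against 3.23, 3.72 and 3.64 in adipocytes (-1.91, SE 0.14, adjusted p = 8.18e-09). Sfrp4 passed the filter through its adipocyte libraries, the group where it is highest, so the filter itself favoured this difference. Its highest value in a lipochondrocyte library was 1.09 FPKM, in P13 replicate 1, without which the call at P21 relative to P13 (-0.47, adjusted p = 0.0142) was lost (-0.30, adjusted p = 0.0785). Dkk1 did not exceed 0.08 FPKM in any library and Dkk4 was listed at 0 in all.

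The 10 inhibitors summed to 515 ± 57.4 FPKM at P8, 606 ± 46.5 at P10, 1569 ± 168 at P13, 4908 ± 487 at P21 and 3131 ± 1270 at P33, against 38.4 ± 1.75 in adipocytes (SD, n = 3 each). Wif1 made up 69.1% of that sum at P8 and 89% at P13, and Sfrp5 79.6% of it in adipocytes.

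Of the ligands, which bind the Frizzled receptors, 5 of 19 reached 1 FPKM in any library: Wnt5a, Wnt5b, Wnt9a, Wnt11 and Wnt16. Wnt3a was listed at 0 throughout, and 7 ligands stayed below 0.1 FPKM in every library. Wnt1, whose regulatory sequence drives the Cre of these mice, is among these 7 and was above 0 in P10 replicate 2 alone (0.02 FPKM).

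Wnt5a, a ligand known mostly for signalling without beta-catenin (ENSMUSG00000021994.14, chromosome 14:28504750 to 28527448), was at 1.98, 2.11 and 2.7 FPKM at P8, 2.22, 2.58 and 2.13 at P10, 2.06, 0.91 and 0.82 at P13, 0.7, 0.43 and 0.57 at P21 and 0.66, 0.64 and 0.69 at P33, against 3.12, 4.22 and 3.17 FPKM in adipocytes. P13 replicate 1 lay within the P8 range and the other P13 libraries below it. P33 differed from adipocytes by -1.43 (SE 0.17, adjusted p = 2.16e-06). The call at P13 relative to P10 (-0.59, adjusted p = 0.0218) was lost without P10 replicate 1 or 2 or P13 replicate 2 or 3 (highest adjusted p 0.104). That at P21 relative to P13 (-0.49, adjusted p = 0.0289) was lost without P13 replicate 1 (-0.25, adjusted p = 0.15) and without P21 replicate 2 or 3.

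Wnt16, a ligand known for its part in bone mass in mice, was at 1.25, 0.79 and 3.43 FPKM at P33 and listed at 0 in all adipocyte libraries (1.39, SE 0.32, adjusted p = 1.16e-03). Its highest value lay in P33 replicate 3, and the P33 and P21 libraries overlapped. Wnt11 averaged 1.84 ± 0.399 FPKM at P8 and 0.673 ± 0.0603 at P33, against 1.29 ± 0.355 in adipocytes (SD, n = 3 each). It was not called in any comparison of the deposited values in the fit of all groups (-0.44, adjusted p = 0.0639 for P33 relative to adipocytes). It was called lower at P33 than in adipocytes with a pseudocount of 0.1 (-0.82, adjusted p = 0.0455), with only the 2 groups in the fit (-0.44, adjusted p = 0.0278) and without adipocyte replicate 2 (-0.56, adjusted p = 0.0403), and lower at P21 than at P13 with scaling (-0.56, adjusted p = 0.0281). Wnt9a averaged 0.933 ± 0.315 FPKM at P21 and 0.393 ± 0.0987 at P13 (SD, n = 3 each, log2 difference 0.46, SE 0.13, adjusted p = 9.27e-03), a call that was lost with scaling (0.30, adjusted p = 0.0944). Wnt9a passed the filter through 2 P21 libraries and 1 P33 library, so the filter itself favoured this difference.

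Rspo1 and Rspo3, which strengthen Wnt signals by sparing receptors from degradation, were the R-spondins that passed the filter, and they moved in opposite directions at P13. Rspo1 (ENSMUSG00000028871.7, chromosome 4:124986430 to 125009099) was at 0.49, 0.4 and 0.83 FPKM at P8, 0.97, 0.88 and 0.94 at P10, 0.26, 0.17 and 0.13 at P13, 2.52, 2.44 and 3.4 at P21 and 6.46, 4.06 and 5.92 at P33, against 2.21, 2.12 and 1.89 FPKM in adipocytes. The 3 P13 libraries were the lowest of all and the 3 P33 libraries the highest. The differences were -0.70 at P13 relative to P10 (SE 0.15, adjusted p = 3.28e-03), 1.67 at P21 relative to P13 (SE 0.15, adjusted p = 5.40e-07), 0.76 at P33 relative to P21 (SE 0.15, adjusted p = 3.54e-03) and 1.06 at P33 relative to adipocytes (SE 0.15, adjusted p = 1.06e-05). The call at P33 relative to P21 was lost with only these 2 groups in the limma fit (adjusted p = 0.161).

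Rspo3 (ENSMUSG00000019880.9, chromosome 10:29452416 to 29535867) was at 1.42, 1.8 and 2.36 FPKM at P8, 1.1, 1.33 and 1.03 at P10, 3.24, 3.58 and 3.88 at P13, 4.67, 3.78 and 2.24 at P21 and 6.87, 4.01 and 3 at P33, against 0.07, 0 and 0 FPKM in adipocytes. It was higher at P13 than at P10 (1.08, SE 0.22, adjusted p = 3.36e-03), without overlap, and P21 and P13 did not pass the test (-0.04, adjusted p = 0.92). Relative to adipocytes the P33 level was higher by 2.4 (SE 0.22, adjusted p = 1.53e-07). Rspo2 and Rspo4 stayed at or below 0.71 FPKM.

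Among the Frizzled receptors, Fzd9 was the most abundant in lipochondrocytes and Fzd4 in adipocytes. Fzd9, a receptor known to bear on bone formation in mice (ENSMUSG00000049551.2, chromosome 5:135248938 to 135251230), was at 175, 197 and 199 FPKM at P8, 151, 141 and 179 at P10, 261, 299 and 352 at P13, 398, 413 and 399 at P21 and 269, 308 and 283 at P33, against 0.07, 0 and 0.28 FPKM in adipocytes. Among the lipochondrocyte stages it held between 87.5% (P33) and 95.6% (P13) of the summed Frizzled FPKM. The differences were 0.94 at P13 relative to P10 (SE 0.13, adjusted p = 1.45e-04), 0.42 at P21 relative to P13 (SE 0.13, adjusted p = 0.0149), -0.50 at P33 relative to P21 (SE 0.13, adjusted p = 0.0214) and 8.01 at P33 relative to adipocytes (SE 0.13, adjusted p = 1.25e-16). The value at P21 relative to P13 turned negative with scaling (-0.03, adjusted p = 0.854) and its call was lost without P13 replicate 1 (0.32, adjusted p = 0.0773). The call at P33 relative to P21 was lost without P21 replicate 2 (-0.48, adjusted p = 0.0725) or P33 replicate 1 (-0.45, adjusted p = 0.0754). With a pseudocount of 0.1 the calls at P21 relative to P13 (adjusted p = 0.305), P33 relative to P21 (0.407) and P13 relative to P8 (0.304) were lost. With only the 2 groups in the limma fit those at P33 relative to P21 (adjusted p = 0.0997) and P13 relative to P8 (0.0776) were lost.

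Fzd4, also the receptor of Norrin (ENSMUSG00000049791.3, chromosome 7:89404355 to 89413134), was the Wnt gene furthest below adipocytes. It was at 1.74, 1.38 and 1.82 FPKM at P33, against 43.5, 40.9 and 43.01 in adipocytes, a mean 25.8 times as high in adipocytes (log2 difference -4.04, SE 0.11, adjusted p = 8.67e-14). At the earlier stages it lay between 0.54 and 1.6 FPKM, and its call at P21 relative to P13 (0.51, adjusted p = 2.48e-03) was lost with scaling (0.28, adjusted p = 0.0599). Tspan12, a membrane protein known to join Fzd4 in Norrin signalling, showed the same order, at 1.78, 1.06 and 1.24 FPKM at P33 and 139, 137 and 145 FPKM in adipocytes (-5.91, SE 0.21, adjusted p = 1.25e-12). The 10 endothelial markers, among them Pecam1 and Cdh5, summed to 9.6 to 12.8 FPKM at P33, where 3 of 10 averaged 1 FPKM or more, and to 830 to 888 in adipocytes, where 10 of 10 did. The macrophage markers summed to 38.5 to 70.7 FPKM at P33 and to 856 to 928 in adipocytes. Their part in the Fzd4 and Tspan12 levels was not tested.

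Fzd1, a receptor for several ligands (ENSMUSG00000044674.6, chromosome 5:4753839 to 4758035), was at 5.15, 5.57 and 5.84 FPKM at P8, 4.03, 3.85 and 5.49 at P10, 4.89, 5.36 and 5.2 at P13, 20.3, 22.7 and 28.5 at P21 and 19.5, 20.5 and 37.04 at P33, against 4.82, 4.62 and 4.48 FPKM in adipocytes. The sorted stages and the adipocytes lay near each other, and every P21 and P33 library lay above them. The mean at P21 was 4.62 times that at P13 (log2 difference 2.00, SE 0.19, adjusted p = 1.78e-06), and P33 exceeded adipocytes by 2.18 (SE 0.19, adjusted p = 8.90e-08). Fzd7 was at 4.14, 2.88 and 2.89 FPKM at P21, against 1.19, 1.39 and 1.61 at P13 (0.84, SE 0.14, adjusted p = 2.97e-04). Fzd2 was at 5.21, 6.06 and 9.2 FPKM at P33, against 0.17, 0.03 and 0.26 in adipocytes (2.73, SE 0.18, adjusted p = 2.01e-09), and no step between stages was called for it. Fzd3, Fzd6, Fzd8 and Fzd10 did not pass the filter and stayed at or below 1.37 FPKM.

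**Figure D5:**
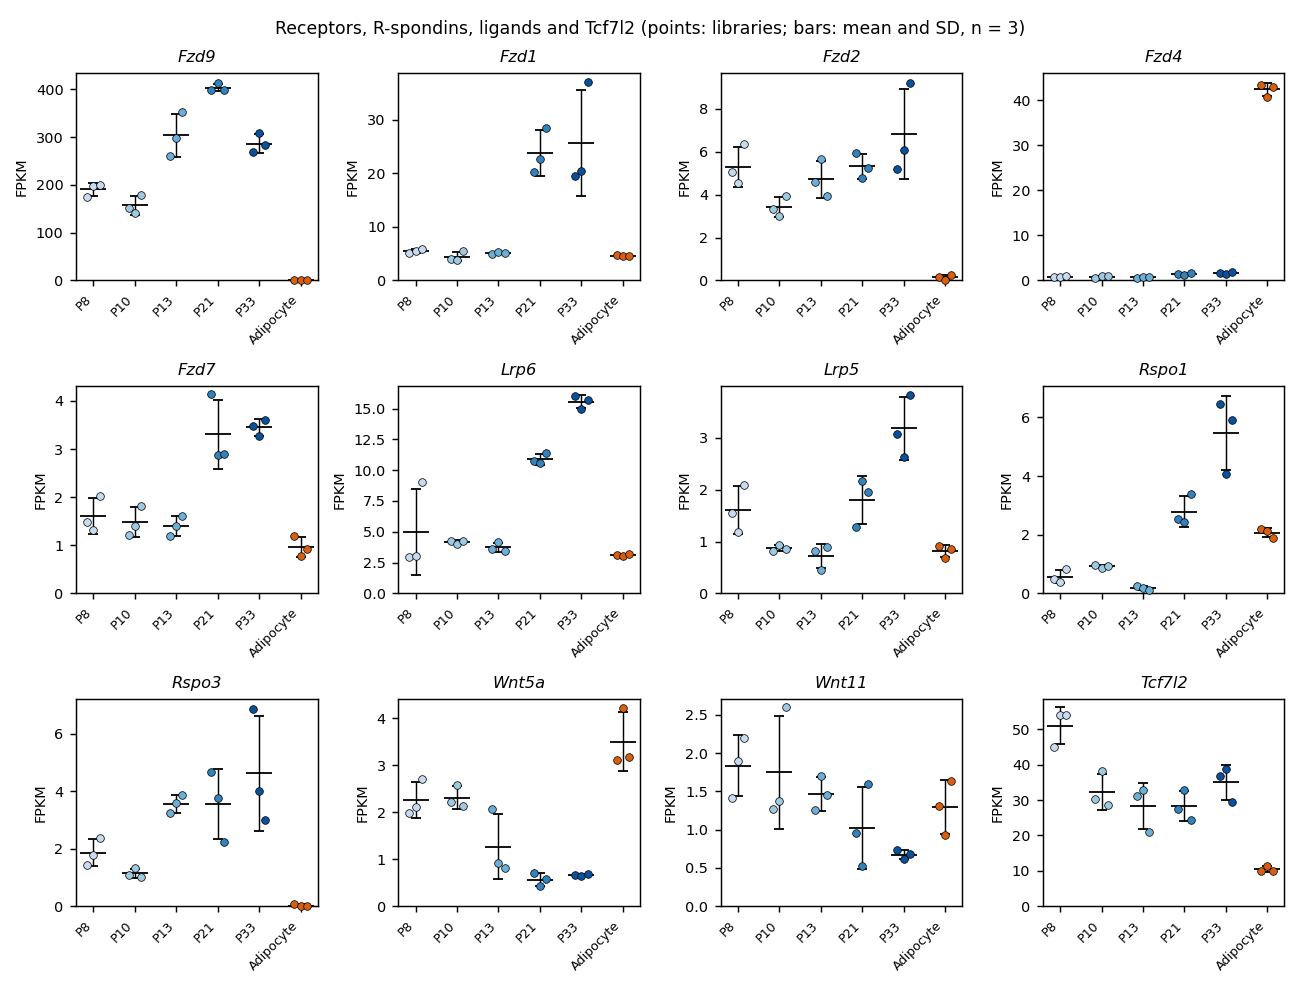
Level in FPKM (y axis, linear and from 0) of 12 receptor, R-spondin, ligand and Tcf genes in each library of the 5 lipochondrocyte stages and of adipocytes (x axis), with points for libraries and bars for the mean and SD of 3. Fzd9, Fzd2 and Rspo3 are near 0 in adipocytes, Fzd4 is near 0 in lipochondrocytes, and Fzd1, Lrp6 and Rspo1 are highest at P21 and P33.

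The co-receptor Lrp6 (ENSMUSG00000030201.15, chromosome 6:134446476 to 134566965) was at 2.95, 3.02 and 9.01 FPKM at P8, 4.26, 4.02 and 4.27 at P10, 3.57, 4.17 and 3.47 at P13, 10.7, 10.6 and 11.4 at P21 and 16, 14.96 and 15.7 at P33, against 3.08, 3.05 and 3.16 FPKM in adipocytes. P8 replicate 3 lay far above the other P8 libraries. Without it Lrp6 was higher at P10 than at P8 (0.38, adjusted p = 0.0209), whereas with it the difference was -0.06 (adjusted p = 0.914). The P21 and P33 libraries lay above all others, by 1.33 at P21 relative to P13 (SE 0.25, adjusted p = 6.06e-04) and by 2.01 at P33 relative to adipocytes (SE 0.25, adjusted p = 3.02e-06).

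The related Lrp5 was lower, at 1.61 ± 0.462 FPKM at P8, 0.873 ± 0.0611 at P10, 0.72 ± 0.236 at P13, 1.8 ± 0.461 at P21 and 3.18 ± 0.602 at P33, against 0.82 ± 0.118 in adipocytes (SD, n = 3 each). It was called higher at P21 than at P13 (0.70, adjusted p = 2.59e-03) and higher at P33 than in adipocytes (1.19, adjusted p = 7.07e-06). The call at P33 relative to P21 (0.58, adjusted p = 0.0294) was lost without P21 replicate 1, P33 replicate 1 or P33 replicate 3 (highest adjusted p 0.114). It was also lost with a pseudocount of 0.1 (adjusted p = 0.0805) and with only the 2 groups in the limma fit (0.22). The call at P13 relative to P8 (-0.60, adjusted p = 0.0459) was lost without any library but P8 replicate 2 (highest adjusted p 0.188).

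Of the factors that carry the signal in the nucleus, Tcf7l2 (ENSMUSG00000024985.18, chromosome 19:55741820 to 55933654) was the most abundant in every group. It was at 45.1, 54.04 and 54.1 FPKM at P8, 30.3, 38.2 and 28.6 at P10, 31.3, 32.9 and 20.9 at P13, 27.6, 32.9 and 24.5 at P21 and 36.8, 38.9 and 29.4 at P33, against 10.01, 11.5 and 10.1 FPKM in adipocytes. The P8 libraries lay above those of the other stages and all lipochondrocyte libraries above the adipocytes. The mean at P33 was 3.33 times that in adipocytes (log2 difference 1.64, SE 0.17, adjusted p = 6.00e-07). P13 was lower than P8 (-0.85, SE 0.17, adjusted p = 0.0101), a call lost without P13 replicate 3 (-0.65, adjusted p = 0.0506). The call at P10 relative to P8 (-0.65, adjusted p = 0.0301) was lost with scaling (-0.32, adjusted p = 0.385) and without P8 replicate 2 or 3 or P10 replicate 1 or 3 (highest adjusted p 0.112).

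Lef1 was at 2.38, 2.34 and 1.58 FPKM at P33, against 0.04, 0.18 and 0.06 in adipocytes (1.49, SE 0.19, adjusted p = 4.44e-06), and no step between stages was called with all libraries. Without P10 replicate 1 it was called higher at P13 than at P10 (0.75, adjusted p = 0.0128). Tcf7l1, known mostly as a repressor, was at 3.57, 3.31 and 5.25 FPKM at P33, against 2.22, 2.31 and 1.48 in adipocytes (0.74, SE 0.15, adjusted p = 4.96e-04). Its call at P21 relative to P13 (0.50, adjusted p = 0.0161) was lost with scaling (0.19, adjusted p = 0.386) and without P13 replicate 3 or P21 replicate 3 (highest adjusted p 0.0682). Axin2, the feedback target of beta-catenin, did not pass the filter: it was at 0.82, 0.88 and 0.3 FPKM at P33, against 0.97, 1.23 and 0.92 in adipocytes, and between 0.13 and 0.62 FPKM at the earlier stages. Those P33 and adipocyte libraries did not overlap, and in the limma fit with no filter Axin2 was not called (-0.31, SE 0.15, adjusted p = 0.117). Tcf7 stayed at or below 0.84 FPKM.

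Of the other genes of the pathway, 68 in 7 lists, 53 were tested. At P33 relative to adipocytes 25 were higher and 13 lower (47.2% and 24.5%, against 24.0% and 44.5% of all genes; median difference 0.38). At P10 relative to P8 these were 1 and 8 (1.9% and 15.1%, against 1.90% and 9.14% of all genes; -0.15), at P13 relative to P10 9 and 6 (17.0% and 11.3%, against 18.6% and 4.03% of all genes; -0.02) and at P13 relative to P8 3 and 5 (5.7% and 9.4%, against 2.69% and 1.52% of all genes; -0.17). At P21 relative to P13, 17 were higher and 5 lower (32.1% and 9.4%, against 36.0% and 7.04% of all genes; 0.22), shares near those of all genes, and at P33 relative to P21 these were 2 and 3 (3.8% and 5.7%, against 2.87% and 7.17% of all genes; 0.00). The 3 genes for lipidation, export and removal of ligands were all higher at P33 than in adipocytes, where 24.0% of all genes were. Notum, the enzyme that strips the lipid from ligands, was at 3.78, 4.63 and 2.97 FPKM at P33, against 0, 0 and 0.09 in adipocytes (2.2, SE 0.16, adjusted p = 1.06e-08). Notum was also higher at P13 (3.19 ± 0.51 FPKM) than at P10 (0.503 ± 0.11 FPKM; SD, n = 3 each; 1.47, adjusted p = 2.96e-05), the step at which Wif1 and Frzb were higher. Wls, which carries ligands to the surface, averaged 39.4 ± 2.7 FPKM at P33, against 25.2 ± 1.3 in adipocytes, and Porcn, which adds the lipid, 8.18 ± 0.56 against 4.56 ± 0.16 (SD, n = 3 each). Trabd2b, a membrane protease that inactivates ligands, averaged 15.2 ± 0.72 FPKM at P21, against 4.84 ± 0.83 at P13 (SD, n = 3 each, 1.48, adjusted p = 1.49e-06).

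Means are given with the SD of 3 libraries. Among the other membrane proteins, 4 of 11 tested were higher and 1 lower at P33 than in adipocytes (36.4% and 9.1%, against 24.0% and 44.5% of all genes). Lgr6, an R-spondin receptor, averaged 4.11 ± 0.52 FPKM at P33, against 0.04 ± 0.017 in adipocytes (2.29, adjusted p = 2.75e-09). Gpc3, a cell-surface proteoglycan, was lower at P21 (17.3 ± 1.3 FPKM) than at P13 (75.3 ± 14; -2.04, adjusted p = 3.35e-07), while its relative Gpc4 was higher at P21 (29.1 ± 7.5 FPKM) than at P13 (6.89 ± 1.8; 1.93, adjusted p = 4.34e-05). In the planar polarity list, 4 of 7 tested were higher and 1 lower at P33 than in adipocytes (57.1% and 14.3%, against 24.0% and 44.5% of all genes). Celsr2, an adhesion protein of that branch, averaged 8.65 ± 1.8 FPKM at P33, against 0.503 ± 0.19 in adipocytes (2.67, adjusted p = 4.58e-09).

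In the dishevelled and destruction complex list, 3 of 14 tested genes were higher and 7 lower at P33 than in adipocytes (21.4% and 50.0%, against 24.0% and 44.5% of all genes), shares near those of all genes. Ctnnb1, which encodes beta-catenin, averaged 71.1 ± 4.3 FPKM at P33, against 33.5 ± 0.75 in adipocytes (1.06, adjusted p = 1.58e-04). Of 6 tested other targets of beta-catenin, 4 were higher and 2 lower at P33 than in adipocytes (66.7% and 33.3%, against 24.0% and 44.5% of all genes). Myc, which many other signals reach as well, was at 15.8, 23.5 and 19.5 FPKM at P8, 63.02, 63.7 and 77.6 at P10, 14.9, 20.5 and 20.03 at P13, 3.66, 2.81 and 2.86 at P21 and 2.16, 2.97 and 3.85 at P33, against 16.4, 16.1 and 16.9 FPKM in adipocytes. Its P10 libraries were the highest of all and those of P21 and P33 the lowest. Wisp1 averaged 1.77 ± 0.12 FPKM at P13, against 5.68 ± 0.06 at P10 (-1.27, adjusted p = 4.98e-05), and Ccnd1 7.93 ± 0.25 FPKM at P13, against 24.4 ± 1.7 at P8 (-1.51, adjusted p = 1.92e-03). Wisp2 and Tnfrsf19 of this list lay higher at P33 than at P13, a pair of stages that was not tested. Wisp2 was at 0.22, 0.09 and 0.18 FPKM at P13, 2.35, 5.11 and 8.55 at P21 and 6.11, 7.77 and 15.94 at P33. Tnfrsf19 was at 0.46, 0.33 and 0.36 FPKM at P13 and 1.91, 2.03 and 2.85 at P33. Ccnd1 was at 7.29, 8.97 and 13.12 FPKM at P21 and 11.09, 11.83 and 23 at P33. These Ccnd1 groups overlapped, and the highest value was that of P33 replicate 3. At P21 relative to P13, 2 of the 6 tested were higher and 1 lower (33.3% and 16.7%, against 36.0% and 7.04% of all genes). RNA levels do not measure beta-catenin activity.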

How the data were processed

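RNA of 18 libraries, 3 in each of 6 groups, was sequenced. STAR 2.4.2a and the mouse build mm10 are named per the submitters' processing notes. The quantifier or annotation behind the values is not given in the sources used here. The deposited table holds FPKM per gene, computed by the authors. The deposited counts are total reads per library, and the deposited percentages are alignment rates per library as the authors gave them. Genes with 1 FPKM in at least 3 libraries were tested (13815 of 46983) with limma 3.58.1 (R 4.3.3) on log2(FPKM + 1), a scale that understates changes of low genes, with 6 group means, a mean-variance trend and Benjamini-Hochberg adjustment within each of 6 comparisons. Adjusted p-values in the text come from this test, which was tested on simulated data. The alternatives were median-of-ratios scaling, a pseudocount of 0.1, no filter, a filter of 5 FPKM, a fit of only the 2 groups compared, a replicate block and leaving out each library. Coordinates come from GENCODE M21 (GRCm38), in which 98.9% of gene IDs were found. Tables and figures used Python 3.11.15, pandas 2.3.3 and matplotlib 3.10.9. Every member may be named; values in every library are given for called members whose groups do not overlap and whose higher group averages 2 FPKM or more, up to 12 per comparison, and for Axin2, Lef1 and Wnt16, chosen after their values were seen. Of each pathway list up to 3 called genes per comparison may be named. The members and lists were chosen with earlier results of these data known.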

Additional observations from a re-analysis of the deposited data

How the results depend on the processing

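Under every alternative that tested them, 22 of 22 called Wnt genes kept their call for P33 relative to adipocytes, 1 of 3 for P10 relative to P8 (Sfrp2), 7 of 8 for P13 relative to P10 (all but Wnt5a), 2 of 6 for P13 relative to P8 (Sfrp2 and Wif1), 8 of 15 for P21 relative to P13 (Frzb, Fzd1, Fzd7, Lrp5, Lrp6, Rspo1, Sfrp1 and Wif1) and 0 of 8 for P33 relative to P21. Such shares of kept calls were not taken over all genes, so they do not set the Wnt genes apart. With the filter of 5 FPKM, which tests fewer genes, 12 Wnt genes were called for P33 relative to adipocytes (75.1% of all genes tested). With that filter 5 were called for P13 relative to P10 (33.6% of all genes) and 8 for P21 relative to P13 (50.8%). For P10 relative to P8, 1 was called with no filter (3.5% of all genes) and 1 with only the 2 groups in the fit (2.54%). On leaving out single libraries 1 to 3 were called (3.76% to 10.8% of all genes). For P13 relative to P8, 3 were called with only the 2 groups in the fit (2.51% of all genes). On leaving out single libraries 3 to 6 were called (2.45% to 3.68% of all genes). For P33 relative to P21, 4 were called with a pseudocount of 0.1 (8.04% of all genes) and 5 with no filter (4.7%). With only these 2 groups in the limma fit 0 were called (0.912% of all genes), and 10 Wnt genes had an unadjusted p below 0.05. For P33 relative to P21, leaving out single libraries gave 4 to 10 calls (6.56% to 13% of all genes). There were 4 without P21 replicate 1, P21 replicate 2, P33 replicate 1 or P33 replicate 3, and 10 without P33 replicate 2. With scaling, 9 values of Wnt genes changed sign at P10 relative to P8, 1 at P13 relative to P10 and 8 at P21 relative to P13. They include Fzd9 (-0.03), Sfrp2 (-0.03), Dkk3 (-0.41), Tcf7l2 (-0.42), Lef1 (-0.30) and Fzd2 (-0.22) at P21 relative to P13 and Lrp6 (0.23) at P10 relative to P8. Among the called genes of the pathway lists Wls at P21 relative to P13 did so too (-0.14). Lrp6 at P10 relative to P8 ranged from -0.29 to 0.38 on leaving out single libraries, 0.38 being without P8 replicate 3. The cause was not tested. The replicate numbers did not pair the libraries (correlations of same-numbered deviations -0.168 to 0.206, and 0 comparisons with every pair over 0.1). A fit with the replicate block called 23, 3, 9, 7, 15 and 9 Wnt genes, in the order of the comparisons above, against 22, 3, 8, 6, 15 and 8 without it. Of all genes it called 69.3%, 13.1%, 24.3%, 4.78%, 44.2% and 11.2%, against 68.5%, 11%, 22.6%, 4.21%, 43.1% and 10% without it. Calls made under an alternative and not on the deposited values in the fit of all groups included Wnt11 for P33 relative to adipocytes (pseudocount of 0.1, replicate block, 2-group fit, without adipocyte replicate 2), Fzd5 there (scaling, without adipocyte replicate 3), Dkk3 at P13 relative to P10 (5 FPKM filter, replicate block, 2-group fit), and Wif1 at P33 relative to P21 (5 FPKM filter, replicate block, without P33 replicate 2). With scaling these were also Fzd5 and Sfrp1 at P13 relative to P8, Fzd5 and Wnt11 at P21 relative to P13 and Sfrp4 at P10 relative to P8, and with a pseudocount of 0.1 Rspo1 at P13 relative to P8. On leaving out single libraries they included Frzb at P33 relative to P21, Sfrp2 at P21 relative to P13, Lef1 at P13 relative to P10, Wnt5a and Fzd5 at P13 relative to P8, and Sfrp1 and Lrp6 at P10 relative to P8. Levels below 1 FPKM limit what can be said of most ligands, Axin2 and Tcf7.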
